A study of Mus musculus with 12 samples.

Results

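The U1 and other small structural RNAs described here are 7 gene rows of 41079 in the deposited table: the U1 rows Rnu1a1, Rnu1b1, Rnu1b2 and Rnu1b6, the RNase P row Rpph1, the RNase MRP row Rmrp and the 7SK row Rn7sk. They were chosen by their levels in these same 12 embryos, with the knockout and wild-type values in view, so every genotype difference given for them is a description with no test. RNA was measured in whole mouse embryos collected between 10.0 and 11.0 days of development from matings of Mfsd12 heterozygotes: 4 Mfsd12 knockout, 4 heterozygous and 4 wild-type. Mfsd12 encodes a membrane protein needed for cysteine import into lysosomes. Embryos of all 3 genotypes developed in heterozygous mothers, each embryo is a separate animal, and the labels give neither the strain nor the design of the allele. In such bulk samples, fewer cells of a type and less RNA per cell cannot be told apart.

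U1 is the small nuclear RNA of the U1 particle, which base-pairs with the 5′ splice site at the start of spliceosome assembly. In the mouse, the U1a form is made throughout life, and U1b forms are known mainly from embryonic and stem cells. Rpph1 is the RNA core of RNase P, which removes the 5′ leader of transfer RNA precursors. Rmrp is the RNA core of the related RNase MRP, which acts in ribosomal RNA maturation. Rn7sk is the scaffold that holds the elongation kinase P-TEFb inactive. The mature RNAs carry no poly(A) tail, whereas the library kit named in the labels is made to keep polyadenylated RNA. Ribosomal RNA carries none either, and the share of counts in 3 rows that collect its reads is set beside the members. These rows are Gm26917 and AY036118, which lie over a ribosomal RNA-like segment of chromosome 17, and Lars2, a mitochondrial leucyl-tRNA synthetase gene with a known ribosomal RNA-like stretch.

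The U1 rows are shown first because their likeness sets what the counts can separate. All 4 begin with the same 11 bases, the stretch that pairs with the 5′ splice site, written here as DNA from GENCODE M21 and wholly in capitals because it is the part that matters.
U1 5′ end: ATACTTACCTG
Bases 25 to 84 of Rnu1b1 and Rnu1b6 follow, with capitals at the bases that differ from Rnu1a1. Rnu1b2 has the same 60 bases as Rnu1b1.
Rnu1b1: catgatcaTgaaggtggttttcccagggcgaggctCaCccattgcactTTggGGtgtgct
Rnu1b6: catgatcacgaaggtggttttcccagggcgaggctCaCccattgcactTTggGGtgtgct
Counted from base 1 at the 5′ end of Rnu1a1, the changes to Rnu1b1 are C33T, T60C, T62C, C73T, C74T and A77G, with 1 gap beside them. Rnu1b6 shares all of these changes except C33T, and also has T156G and 2 gaps. The alignment gives 95.8% identity of Rnu1a1 with Rnu1b1, 95.2% with Rnu1b6, 98.2% of Rnu1b1 with Rnu1b6 and 100% of Rnu1b1 with Rnu1b2. The letters ATTTNTGG, the pattern on which the Sm protein ring is built in small nuclear RNAs, occur as ATTTGTGG at bases 126 to 133 of Rnu1a1 and at bases 127 to 134 of the other U1 rows, and on the other strand of 0 of them. The same pattern lies in a 5′ stretch of the length of Rnu1a1 in 0.974% of 135350 GENCODE transcripts of at least that length, or 1.91% on either strand.

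The first 110 bases of Rn7sk are shown because they hold the 5′ hairpin region to which the inhibitor of P-TEFb binds, and GATC, a motif of that region, is in capitals.
Rn7sk: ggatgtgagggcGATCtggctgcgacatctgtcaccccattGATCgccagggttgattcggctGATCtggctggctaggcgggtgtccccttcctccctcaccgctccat
GATC, which reads the same on both strands, occurs 3 times between bases 13 and 67. At least 1 such match lies in the first 110 bases of 25.5% of 138029 transcripts, and at least 3 lie there in 0.427%.

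Positions are those of the deposited table, in GRCm39. Rnu1a1 is a plus-strand exon of chromosome 11, spanning bases 87313693 to 87313856, within 2000 bases of Tex14. The U1b rows lie on chromosome 3: Rnu1b1 from 96267269 to 96267433 on the minus strand, Rnu1b2 from 96281337 to 96281501 on the opposite one and Rnu1b6 from 96367340 to 96367505 on the minus strand, where an exon of Gm10685 overlaps it. Rpph1 is a 325-base exon on chromosome 14 from 51044904 to 51045228, minus strand, beside Parp2. Rmrp is a 275-base exon on chromosome 4 from 43492785 to 43493059, minus strand, beside Ccdc107. Rn7sk is a 332-base exon on chromosome 9 from 78082584 to 78082915, minus strand, beside C920006O11Rik. Strand was not used in the authors' counting and a read that mapped to several places was split among them, so the 4 U1 rows, their other copies and overlapping genes cannot be fully told apart.

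Each library held 53133084 to 67977990 counted reads, and the 7 rows together took 0.000562% to 0.0203% of them. Mfsd12 itself stood at 3.22, 2.78, 3.56 and 2.31 counts per 1000000 (CPM, scaled by TMM factors) in knockout embryos 1 to 4, at 8.84, 2.57, 6.03 and 5.91 in heterozygous embryos 1 to 4 and at 12.7, 16.2, 9.48 and 9.37 in wild-type embryos 1 to 4. The library labelled heterozygous 2 lay within the knockout range. All 8 markers of neural, muscle, heart, limb and neural crest tissue were detected in every library, with summed levels of 309 to 470 CPM in knockout, 515 to 655 in heterozygous and 502 to 693 in wild-type embryos. The difference in these sums lay mainly in 1 gene, Tubb3, at 43.1 to 239.6 CPM in knockout, 202.5 to 430.6 in heterozygous and 240.3 to 408.7 in wild-type embryos. Of the 8 markers, 3 had a positive log2 fold change of knockout over wild-type, and the median was -0.08. The ribosomal RNA rows took 3.62, 1.71, 1.51 and 8.36% of counted reads in knockout embryos, 2.22, 1.09, 1.09 and 1.25% in heterozygous embryos and 1.57, 2.42, 0.948 and 1.76% in wild-type embryos. Knockout 4 stands apart, at 4.80 times the mean share of the other 11 libraries, and holds 9.37% of all counted reads in the table, so results are given with and without it.

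U1 was higher on average in knockout than in wild-type embryos in each of its 4 rows, which were chosen with these values in view. The knockout and wild-type embryos did not overlap in CPM, with knockout higher, as for 332 of all 20771 genes (1.6%). The margins were thin: Rnu1a1 had 60.5 counts in knockout 2 and 55.9 in wild-type 2, and Rnu1b1 had 8 in knockout 3 and 6 in wild-type 3. Rnu1a1, the U1a row, stood at 7.30, 1.003, 1.49 and 17.4 CPM in knockout embryos, at 1.19, 0.485, 0.372 and 2.14 CPM in heterozygous embryos and at 0.272, 0.810, 0.307 and 0.0926 CPM in wild-type embryos. Knockout 1 and 4 are far above the rest, knockout 2 and 3 lie inside the heterozygous range, and the heterozygous and wild-type ranges overlap. The means were 6.81 ± 7.65 CPM in knockout, 1.05 ± 0.813 in heterozygous and 0.371 ± 0.308 in wild-type embryos (SD, n = 4 each). The knockout mean was 18.4 times the wild-type mean, 8.81 times without knockout 4 and 3.36 times for knockout 2 and 3 alone. The fitted log2 fold change of knockout over wild-type was 4.19 ± 0.96 (SE), and 3.14 without knockout 4.

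The U1b rows showed the same 2 high embryos on far fewer reads. Rnu1b1 stood at 1.80, 0.257, 0.122 and 5.72 CPM in knockout embryos, at 0.0292, 0.106, 0.0731 and 0.694 in heterozygous embryos and at 0.0460, 0.0652, 0.0898 and 0.0347 in wild-type embryos. Rnu1b2, its identical copy, had counts within 3 of those of Rnu1b1 in 12 of 12 libraries, with 1.80, 0.274, 0.122 and 5.69 CPM in knockout embryos, 0.0583 to 0.694 in heterozygous embryos and 0.0347 to 0.0652 in wild-type embryos. Rnu1b6 stood at 0.681, 0.188, 0.245 and 3.37 CPM in knockout embryos, at 0.0744, 0.118, 0.0475 and 0.358 in heterozygous embryos and at 0.0602, 0.0459, 0.0524 and 0.0947 in wild-type embryos. In each U1b row heterozygous 4 comes next after knockout 4 and knockout 1. At least 10 counts were present for Rnu1b1 and Rnu1b2 in 3 knockout, 1 heterozygous and 0 wild-type embryos, and for Rnu1b6 in 4, 1 and 0. Wild-type counts of Rnu1b1 were 2 to 6 per library, and a count of 2 has an exact Poisson 95% interval of 0.242 to 7.22, which covers counting error only. Rnu1b6 passed the filter on low counts through the knockout libraries, and Rnu1b1 and Rnu1b2 through 3 of them together with heterozygous 4. With 0 wild-type embryos at 10 counts, the 3 rows had to differ from wild-type. Their fitted log2 fold changes of knockout over wild-type were 5.02 ± 1.25 for Rnu1b1, 5.32 ± 1.23 for Rnu1b2 and 4.08 ± 0.97 for Rnu1b6, and without knockout 4 they were 3.59, 3.90 and 2.48 in the same order.

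Since reads may be split among the U1 rows, their sum is given as well. The 4 rows together stood at 11.6, 1.72, 1.98 and 32.2 CPM in knockout embryos, at 1.35, 0.814, 0.565 and 3.89 in heterozygous embryos and at 0.425, 0.987, 0.494 and 0.257 in wild-type embryos. The lowest knockout embryo was above the highest wild-type embryo, while heterozygous 4 was above knockout 2 and 3. The knockout mean was 21.98 times the wild-type mean with all embryos, 9.43 times without knockout 4 and 3.42 times for knockout 2 and 3 alone. The log2 fold change was 4.44 ± 0.96 for knockout over wild-type, 2.84 ± 0.89 for knockout over heterozygous and 1.599 ± 0.88 for heterozygous over wild-type, the last being 0.74 without heterozygous 4. Without knockout 1 and 4, a comparison chosen after the values were seen, the first of these was 1.76, and without knockout 4 alone it was 3.23.

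**Figure D1:**
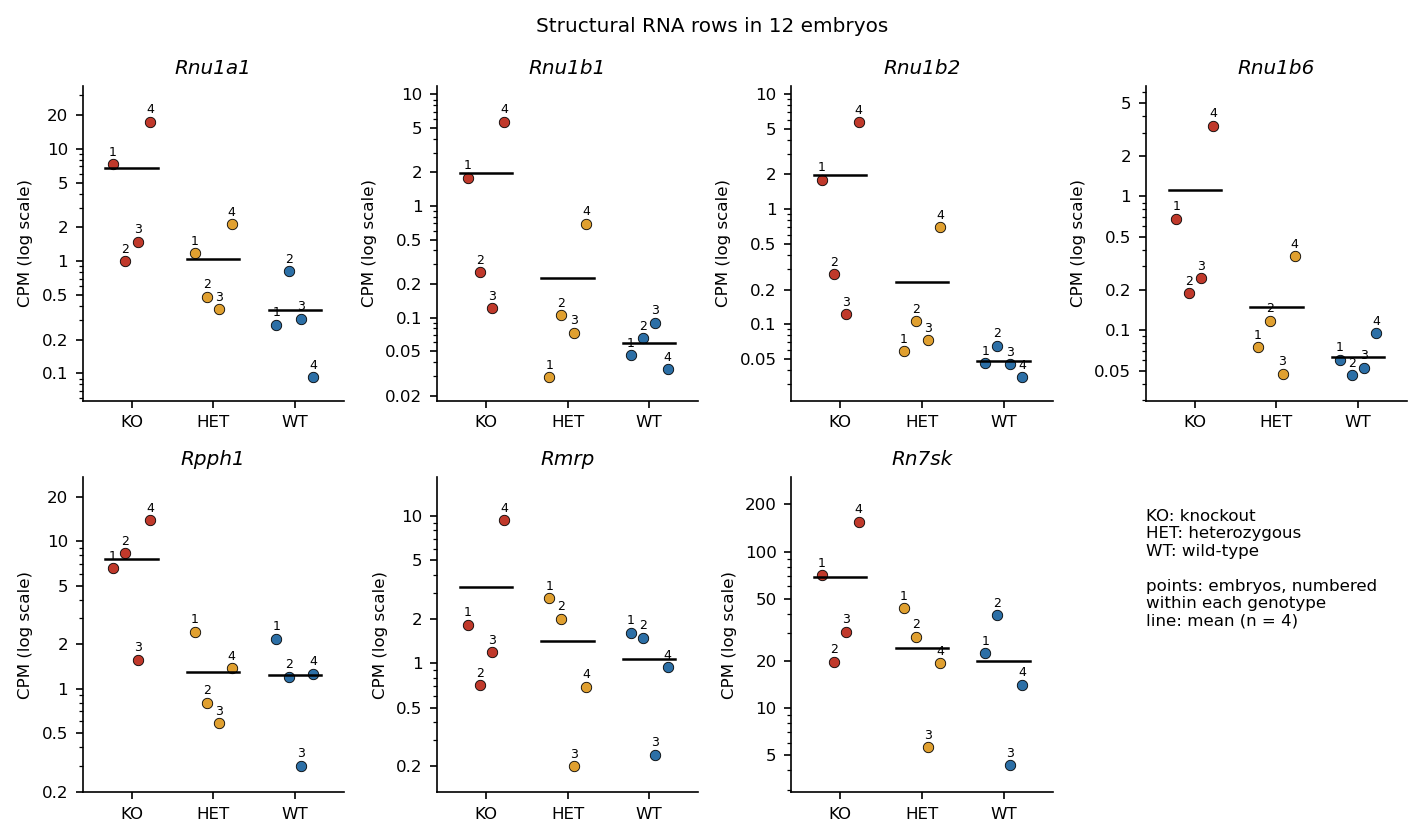
Level of each of the 7 rows in every embryo, in CPM on a log axis, with knockout, heterozygous and wild-type embryos from left to right. Each point is 1 embryo, numbered within its genotype, and lines are means (n = 4). Knockout 4 is the highest point in all 7 panels, and the knockout points clear every wild-type point in the U1 panels, while they overlap the wild-type points in the Rpph1, Rmrp and Rn7sk panels.

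Rpph1, the RNase P RNA, was high in 3 knockout embryos and not in the fourth. It stood at 6.54, 8.27, 1.57 and 13.9 CPM in knockout embryos, at 2.44, 0.803, 0.585 and 1.37 in heterozygous embryos and at 2.19, 1.203, 0.299 and 1.26 in wild-type embryos. Knockout 1, 2 and 4 were above all other embryos, and knockout 3 lay within the wild-type range. The means were 7.58 ± 5.10 CPM in knockout, 1.30 ± 0.827 in heterozygous and 1.24 ± 0.771 in wild-type embryos (SD, n = 4 each). The knockout mean was 6.13 times the wild-type mean, and 4.42 times without knockout 4. The log2 fold change of knockout over wild-type was 2.62 ± 0.68, and that of heterozygous over wild-type was 0.08 ± 0.65. Leaving out knockout 4 gave a fitted value of 2.16, and leaving out knockout 1 as well gave 1.996.

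Rmrp, the RNase MRP RNA, differed between genotypes mainly through 1 embryo. It stood at 1.83, 0.713, 1.19 and 9.44 CPM in knockout embryos, at 2.79, 2.01, 0.201 and 0.694 in heterozygous embryos and at 1.62, 1.49, 0.240 and 0.938 in wild-type embryos. Knockout 4 is far above the rest, heterozygous 1 and 2 come next, and the 3 genotypes overlap. The means were 3.29 ± 4.12 CPM in knockout, 1.42 ± 1.19 in heterozygous and 1.07 ± 0.629 in wild-type embryos (SD, n = 4 each). The log2 fold change of knockout over wild-type was 1.62 ± 0.88 with all embryos, 0.22 without knockout 4 and -0.18 without knockout 1 and 4.

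Rn7sk, the 7SK RNA, was the most abundant of the 7 rows per length, at 208 ± 185 CPM per kilobase in knockout, 72.9 ± 47.7 in heterozygous and 60.3 ± 44.7 in wild-type embryos. On the same scale Rnu1a1 averaged 41.5, 6.37 and 2.26, Rpph1 23.3, 3.996 and 3.81, and Rmrp 11.97, 5.17 and 3.90 in knockout, heterozygous and wild-type embryos. In CPM, Rn7sk stood at 70.7, 19.7, 30.7 and 155 in knockout embryos, at 43.3, 28.6, 5.63 and 19.3 in heterozygous embryos and at 22.4, 39.3, 4.31 and 14.1 in wild-type embryos. Knockout 1 and 4 are highest, and knockout 2 and 3 lie within both other ranges. The log2 fold change of knockout over wild-type was 1.79 ± 0.74 with all embryos, 1.02 without knockout 4 and 0.32 without knockout 1 and 4.

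In all 7 rows the means ran from knockout through heterozygous to wild-type. The heterozygous and wild-type means were closer than the heterozygous SD in all 7. The knockout and heterozygous means were closer than the knockout SD in 6, and farther apart only for Rpph1. Within a genotype these rows scattered widely: the SD of log2 CPM around the genotype means was 1.44 for Rnu1a1, 1.14 for Rpph1, 1.48 for Rmrp and 1.31 for Rn7sk, against a median of 0.40 over the 20771 genes tested. Knockout 4 alone held 55.7% of all Rnu1a1 counts, 36.5% of those of Rpph1, 42.7% of those of Rmrp and 36.1% of those of Rn7sk.

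Against the background of all genes, edgeR's quasi-likelihood test with Benjamini-Hochberg adjustment called 0 of 20771 genes, or 0.0%, in each pair of genotypes, and so 0 of the 7 rows. At an unadjusted p under 0.05 the counts of genes were 1730 (8.33%) for knockout against wild-type, 1537 (7.4%) for knockout against heterozygous and 209 (1.01%) for heterozygous against wild-type. Of the 1730, 882 (4.25%) were higher in knockout. The 7 rows gave 6, 5 and 0 in those pairs. DESeq2 called 122 of 18957 genes (0.644%), 74 of 20164 (0.367%) and 4 of 20567 (0.0194%), among them 5 of the 7 rows, namely the U1 rows and Rpph1, then Rpph1 alone, and then 0. Limma's voom fit with sample weights called 0 genes in each pair. Since these contrasts chose the rows, nothing is read from their counts. Without knockout 4, DESeq2 called 20 genes (0.0955%) between knockout and wild-type and 4 (0.0191%) between knockout and heterozygous, and without knockout 1 and 4 it called 44 (0.203%) between knockout and wild-type. None of the 7 rows was among the calls of these 3 fits. Every knockout embryo was above every wild-type embryo for 332 genes (1.6%), the U1 rows among them.

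**Figure D2:**
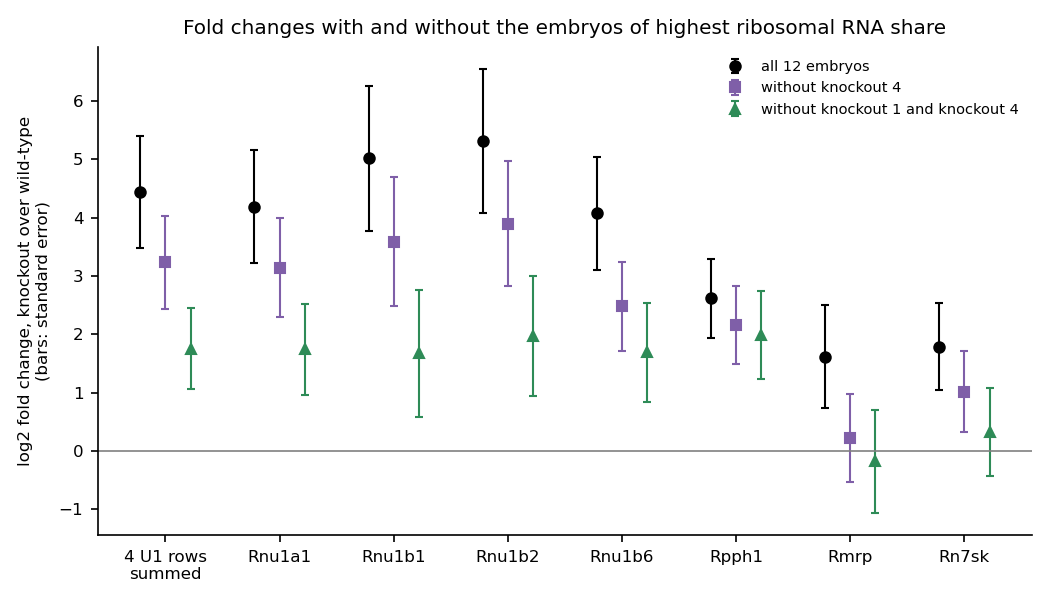
Log2 fold change of knockout over wild-type for each row and for the U1 sum, with all 12 embryos, without knockout 4, and without knockout 1 and 4; bars are SE. The U1 sum is 4.44, 3.23 and 1.76 in these settings and Rpph1 2.62, 2.16 and 1.996, whereas Rmrp is 1.62, 0.22 and -0.18.

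The first number in the embryo titles, whose meaning is not stated, holds all 3 genotypes only for numbers 4 and 18. Within number 4 the log2 difference of the U1 sum was 2.17 for knockout over wild-type and -1.16 for knockout over heterozygous. Within number 18 these were 1.56 and 0.54. Rpph1 differed by 3.66 between knockout and wild-type within number 4 and by -0.04 within number 18, Rmrp by 0.54 and -0.38, and Rn7sk by 1.34 and 0.05. Each of these sets 1 knockout embryo against 2 wild-type embryos or 1 heterozygous embryo, so there is no spread to judge them by. Within number 14, the U1 sum stood at 11.6 CPM in knockout 1 and at 0.814 CPM in the library labelled heterozygous 2. Knockout 1 and knockout 4, the 2 high embryos, carry numbers 14 and 15, under which there is no wild-type embryo, so for them the number and the genotype cannot be told apart.

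Other U1 copies were high in the same embryos. A further 21 rows of the table are at least 95% identical to Rnu1a1 or Rnu1b1, and the named rows hold 21.4% of the counts of all 25. The whole family stood at 44.1, 6.12, 8.42 and 166 CPM in knockout embryos, at 6.44, 3.99, 2.88 and 13.9 in heterozygous embryos and at 1.88, 3.73, 2.16 and 1.12 in wild-type embryos. All 4 knockout embryos are again above all wild-type embryos, and knockout 4 alone holds 66.3% of the family's counts. The knockout mean was 25.2 times the wild-type mean, and 8.78 times without knockout 4. Of the 20 family rows with at least 100 counts, 19 were highest in knockout 4, the exception being Gm26232. Of all genes tested, 16.5% were highest there. The 100 counts were summed over all libraries, and knockout 4 held a median of 68.1% of them per row, and up to 99.4%. Rows that reached 100 counts through knockout 4 had to be highest there. Of the 8 copies outside the named rows that passed the filter, DESeq2 called 7 between knockout and wild-type, against 122 of 18957 genes (0.644%). Of those 122 calls, 11 were family rows. The copies can share reads with the named rows, which this contrast chose, so nothing is read from these counts. Because reads are divided among copies, the 25 rows are not separate measurements.

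**Figure D3:**
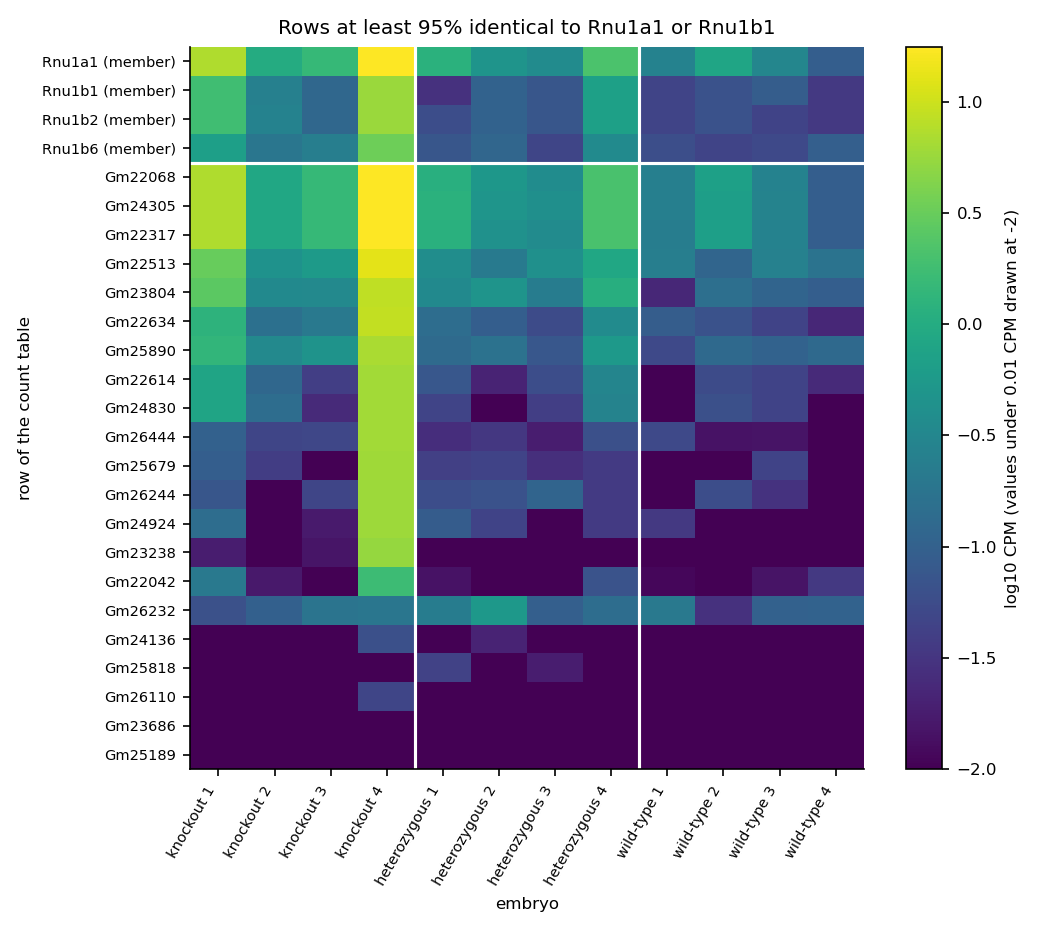
Heat map of the 25 U1 rows (down the page, the 4 named rows on top) in each embryo (across, knockout embryos left of heterozygous and wild-type embryos), with colour for log10 CPM and values under 0.01 CPM drawn at the lowest colour. The columns of knockout 4 and knockout 1, whose sums are 166 and 44.1 CPM, are the brightest.

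The 7 rows went with the ribosomal RNA share of the libraries, but not all in the same measure. Across 12 embryos, log2 CPM against the log2 share gave Pearson's r = 0.77 (Spearman's rho 0.47) for the U1 sum, 0.82 (0.73) for Rpph1, 0.80 (0.62) for Rmrp and 0.86 (0.77) for Rn7sk. The points share their libraries, depths and read totals, so these are descriptions with no p. Without the 2 embryos farthest from the median share, knockout 4 and knockout 1, r was 0.11 for the U1 sum, 0.62 for Rpph1, 0.64 for Rmrp and 0.72 for Rn7sk (n = 10). The relation of U1 to the share thus rests on those 2 libraries. With each value centred on the mean of its genotype, r was 0.76 for the U1 sum, 0.73 for Rpph1, 0.79 for Rmrp and 0.83 for Rn7sk.

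**Figure D4:**
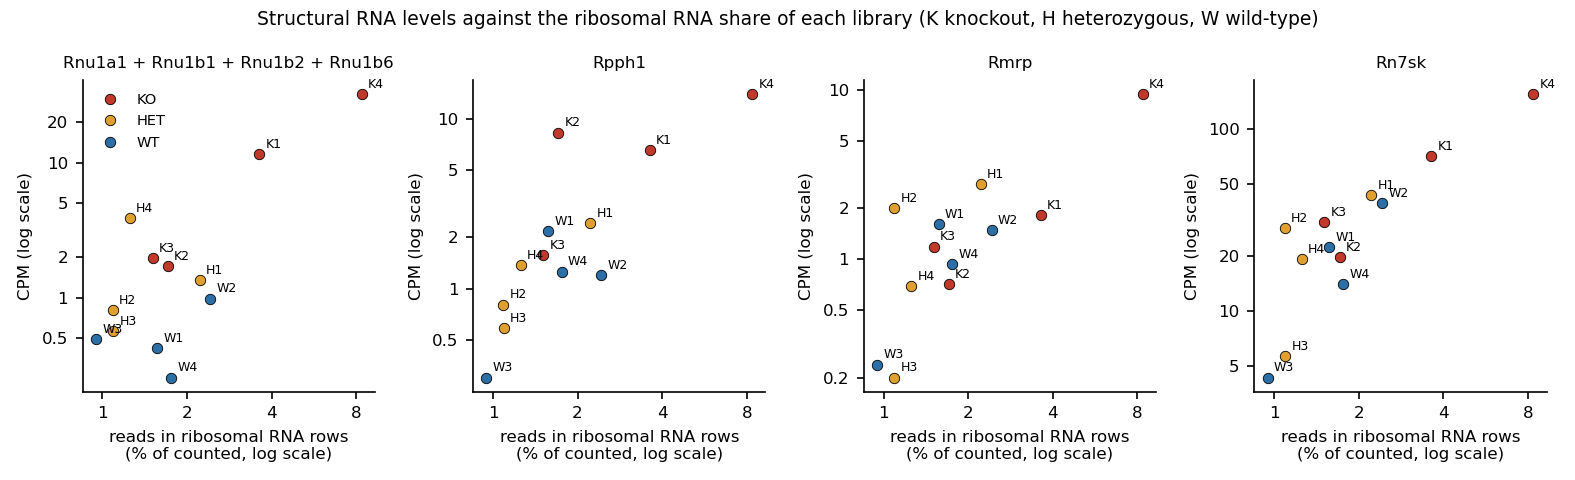
Level of the U1 sum, Rpph1, Rmrp and Rn7sk (CPM, log axis) against the percentage of counted reads in the ribosomal RNA rows (log axis), 1 point per embryo, by genotype. Knockout 4, at 8.36%, and knockout 1, at 3.62%, are the 2 points farthest right in each panel, and among the other 10 embryos the slope is visible for Rn7sk and hardly for U1.

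The levels were also set against the ribosomal RNA rows rather than against all reads. Per 1000000 counts in those rows, the U1 sum stood at 330, 98.6, 137 and 370 in knockout embryos, at 63.7, 65.9, 52.4 and 309 in heterozygous embryos and at 24.8, 42.1, 54.9 and 15.4 in wild-type embryos. All 4 knockout embryos were above all 4 wild-type embryos, which on this scale held for 21 of 20771 genes (0.101%), and heterozygous 4 lay above knockout 2 and 3. The U1 rows were chosen with their knockout and wild-type values in view, so nothing is read from that share. The knockout mean was 6.82 times the wild-type mean, against 21.98 times in CPM. Rpph1 averaged 232 ± 164 in knockout, 85.8 ± 30.7 in heterozygous and 71.9 ± 40.9 in wild-type embryos, with its highest value, 474, in knockout 2. Rmrp averaged 70.9 ± 30.5 in knockout, 92.0 ± 66.5 in heterozygous and 60.2 ± 27.8 in wild-type embryos, and Rn7sk 1764 ± 446, 1605 ± 790 and 1077 ± 525 in the same order (SD, n = 4 each). The genotypes overlap for both, and knockout 4 has rank 3 for Rmrp and rank 5 for Rn7sk. From the lowest to the highest embryo, the range was 36.1-fold for Rn7sk in CPM and 4.84-fold on this scale, and for the U1 sum 125.5-fold and 24.0-fold.

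**Figure D5:**
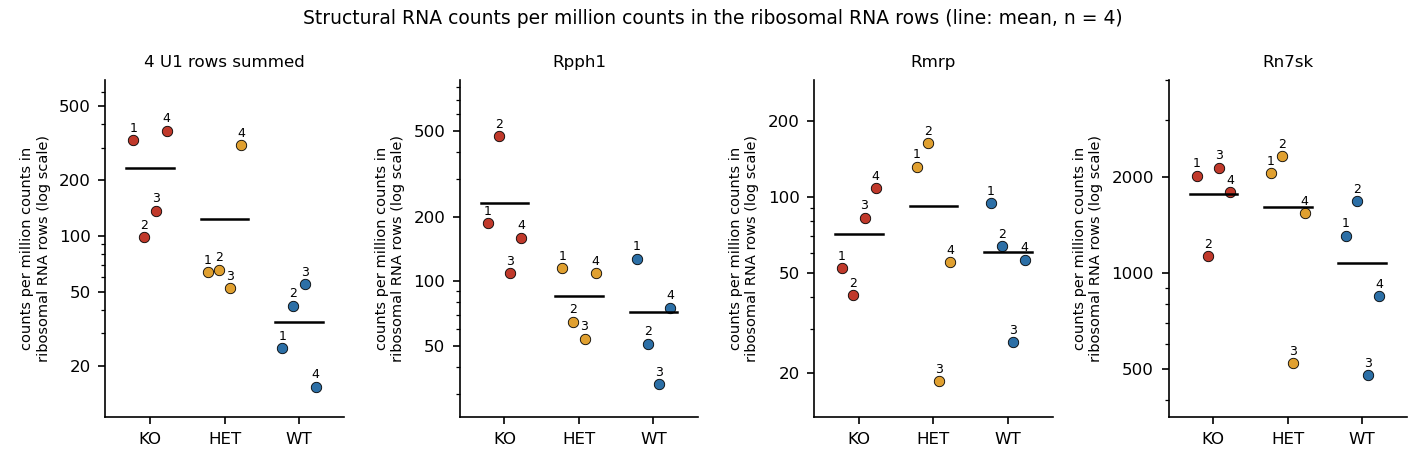
Level of the U1 sum, Rpph1, Rmrp and Rn7sk in counts per 1000000 counts in the ribosomal RNA rows (log axis), 1 point per embryo, with knockout, heterozygous and wild-type embryos from left to right. The knockout points of U1, 98.6 to 370, lie above the wild-type points, 15.4 to 54.9, and the Rmrp and Rn7sk points of the 3 genotypes overlap.

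The rows also differed in how closely they went together. Over the 12 embryos, r of log2 CPM was 0.94 between Rmrp and Rn7sk, 0.79 between Rpph1 and Rn7sk, 0.76 between the U1 sum and Rn7sk and 0.60 between the U1 sum and Rmrp. Rmrp counts were 2.59% to 7.23% of Rn7sk counts in every library. The U1 sum was 16.4, 8.73, 6.44 and 20.7% of Rn7sk counts in knockout embryos, 3.11, 2.85, 10.0 and 20.1% in heterozygous embryos and 1.90, 2.51, 11.5 and 1.82% in wild-type embryos. Heterozygous 3, heterozygous 4 and wild-type 3 lie within the knockout range, so the genotypes overlap in this ratio.

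Among 15665 genes outside the 7 rows with a mean of at least 1 CPM, the 5 most like the U1 sum over the 12 embryos were the U1 copies Gm22317 (r = 0.99), Gm22068 (0.99), Gm24305 (0.99) and Gm23804 (0.95), and Gm32584 (0.94). With U1 copies left out, Lars2 (0.90), Gm46277 (0.90) and the 7SL RNA rows Rn7s1 and Rn7s2 (0.89 each) came next. Outside the 7 rows, Rpph1 was most like Yars2, the mitochondrial tyrosyl-tRNA synthetase (0.89), Chac1, a glutathione-degrading enzyme (0.88), and Wdr74 (0.87). Again outside the 7 rows, Rmrp was most like Snhg20, a small nucleolar RNA host transcript (0.94), Tbxas1, thromboxane synthase (0.91), and Apela, a peptide ligand of the apelin receptor (0.90). Rn7sk was, on the same terms, most like Rn7s1 and Rn7s2 (0.94 each) and the histone row H2bc18 (0.91). Rmrp and Rn7sk were as like each other, as given above.

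Other RNAs without a poly(A) tail give the setting of these values between knockout and wild-type embryos, where the median log2 fold change of all 20771 genes was 0.01 and 10644 were positive. The 2 rows of 7SL RNA, the core of the signal recognition particle, belong to a list of 9 other structural RNAs of which 6 passed the filter, all 6 were positive, 0 were called by either tool and the median was 2.83. The 7SL rows had nearly the same counts and stood at 2.83 each, so that median is their value. In the same list Rnu7, described below, had 0.02 ± 0.36, and Bc1 averaged 25.8 ± 5.94 CPM in knockout and 22.1 ± 11.6 in wild-type embryos. Rn7s1 averaged 76.8 ± 72.5 CPM in knockout (42.6 ± 29.8 without knockout 4), 24.4 ± 16.95 in heterozygous and 10.8 ± 7.90 in wild-type embryos. Of 155 small nucleolar and Cajal body RNA rows, 107 passed, 105 were positive and the median was 0.68. Of the 107, 68 were highest in knockout 4, against 16.5% of all genes tested. The 155 rows summed to 181 ± 74.7 CPM in knockout (145 ± 24.3 without knockout 4), 132 ± 29.0 in heterozygous and 111 ± 38.9 in wild-type embryos. DESeq2 called 1 of them, the U3 row Snord3b3, which averaged 1.39 ± 1.71 CPM in knockout (0.575 ± 0.626 without knockout 4), 0.242 ± 0.165 in heterozygous and 0.0836 ± 0.0763 in wild-type embryos. Snord96a and Snord78, the most abundant of that list, had log2 fold changes of 0.48 ± 0.29 and 0.58 ± 0.39. Of the mitochondrial ribosomal RNAs, DESeq2 called mt-Rnr1 and mt-Rnr2, and mt-Rnr2 averaged 1213 ± 1079 CPM in knockout (686 ± 282 without knockout 4), 310 ± 126 in heterozygous and 321 ± 44.6 in wild-type embryos. Without knockout 4 the DESeq2 adjusted p was 0.563 for Snord3b3, 0.452 for mt-Rnr1 and 0.271 for mt-Rnr2. Of 6 other small nuclear RNA rows 2 passed, and Rnu7, the U7 RNA of histone 3′ end formation, averaged 0.851 ± 0.129 CPM in knockout, 0.773 ± 0.346 in heterozygous and 0.837 ± 0.140 in wild-type embryos. The nuclear transcript Malat1 averaged 365 ± 337 CPM in knockout (201 ± 97.0 without knockout 4), 211 ± 180 in heterozygous and 146 ± 76.6 in wild-type embryos. Of 67 histone rows, 55 passed with a median of 0.37 and 0 calls by either tool.

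None of the listed messenger RNAs for proteins that bind, make or degrade these RNAs was called by edgeR or DESeq2 between knockout and wild-type embryos. Among all genes tested, edgeR called 0.0% and DESeq2 0.644% in this pair, so lists this short would hold few calls or none in any case. All 9 listed U1 particle proteins passed the filter, 6 were positive and the median log2 fold change of knockout over wild-type was 0.13. Their summed level was 1405 ± 101 CPM in knockout, 1423 ± 226 in heterozygous and 1317 ± 88.3 in wild-type embryos. Snrnp70, which binds the first stem-loop of U1, had a log2 fold change of 0.14 ± 0.15, and Luc7l2, a U1-associated splicing factor, 0.16 ± 0.21. The 11 proteins of RNase P and MRP summed to 311 ± 28.9 CPM in knockout, 282 ± 32.2 in heterozygous and 313 ± 55.7 in wild-type embryos, with a median of -0.08. Of these, Pop4 had -0.08 ± 0.17 and Pop1, the largest shared subunit, 0.42 ± 0.19. The 10 genes of the 7SK particle and P-TEFb summed to 766 ± 46.1 CPM in knockout, 711 ± 80.6 in heterozygous and 715 ± 109 in wild-type embryos, and Aff4, a scaffold of the super elongation complex, had a log2 fold change of 0.10 ± 0.21. The median was 0.06 for the Sm ring and its assembly (23 genes), 0.14 for small nuclear RNA transcription (16), 0.05 for Integrator (14), 0.13 for RNA polymerase III (12) and 0.13 for the exosome and RNA decay (17). None of the genes of these 8 lists had every knockout embryo above every wild-type embryo. Over all 20771 genes this held for 332 (1.6%), so nothing is read from its absence in lists this short.

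Markers of other tissue differed between the same libraries. The 7 decidua and placenta markers summed to 1.23, 0.506, 27.3 and 260 CPM in knockout embryos, 0.274 to 8.55 in heterozygous embryos and 0.150 to 0.558 in wild-type embryos. In knockout 3 the sum was nearly all Igfbp1, at 27.1 CPM, while Prl8a2 and Tpbpa were at 0 there. In knockout 4 the placental hormone genes Prl8a2, Prl2c2 and Prl3d1 stood at 190, 37.9 and 31.5 CPM, and 5 of the 7 markers were highest there, while Ceacam11 was at 0 in all 12 libraries and 1 of 7 was above 0 in all. The 9 yolk sac endoderm markers summed to 4601 CPM in knockout 3 and to 80.6 to 103 in the other knockout embryos, against 90.1 to 695 in heterozygous and 61.6 to 168 in wild-type embryos. The 5 red blood cell markers summed to 4577 to 16658 CPM in knockout, 11339 to 45697 in heterozygous and 15641 to 73475 in wild-type embryos. DESeq2 called 1 of these, Slc4a1, the red cell anion exchanger, which averaged 133 ± 63.5 CPM in knockout, 379 ± 211 in heterozygous and 430 ± 247 in wild-type embryos, and its DESeq2 adjusted p between knockout and wild-type was 0.027 with all embryos and 0.229 without knockout 4. Knockout 1, next after knockout 4 for U1 and Rn7sk, stood at 1.23 CPM in the placental markers. The part of these tissues, of RNA quality and of the ribosomal RNA share in the levels of the 7 rows was not tested.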

How the data were processed

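RNA of 12 whole mouse embryos was sequenced from 325 ng of total RNA each, with a stranded mRNA kit and spike-in RNA, per the labels' protocols. One table was deposited, holding estimated counts, not normalized, for each gene. Per the file headers it came from featureCounts 2.0.6 with the RefSeq annotation of GRCm39. It counted each mate, gave fractions for reads with several places or genes (overlap limit 100) and used no strand. The submitters' processing notes also list DRAGEN, with no role. The table held 0 spike-in rows. Replicate numbers are deposition order and pair nothing.

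Counts were rounded to whole numbers, filtered with filterByExpr (20771 of 41079 genes kept) and scaled by TMM factors. The test was edgeR 4.0.16 quasi-likelihood (robust, R 4.3.3) on all 12 embryos, with Benjamini-Hochberg adjustment at a threshold of 0.05. CPM are unrounded estimated counts over TMM-scaled totals, and shares are of all counted reads. Relations used log2 CPM after adding 0.5 counts, and likeness between genes used a prior count of 2. DESeq2 1.42.0, limma 3.58.1 (voom), other scalings and filters, the title number as a block and leaving out embryos were alternatives. Adjusted p-values that DESeq2 did not give stayed missing. The scripts were tested on simulated data.

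The 7 rows and all gene lists were chosen with earlier results of these data known. Besides the 7 rows, the genes named are the ribosomal RNA rows, Mfsd12, listed genes that a test called or else the 2 most abundant of a list, and the genes most like a row. Some of the most abundant are not printed, and Rnu7, Bc1, Malat1, the 7SL rows and single placental markers were given for their values or roles. RNA sequences were taken from GENCODE M21 (GRCm38), coordinates from the deposited table.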

Additional observations from a re-analysis of the deposited data

Results flagged for a closer look

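Of 48 sets of 4 embryos of a genotype examined for a single distant value by Dixon's 95% criterion, 7 had one. Chance gives about 1 in 20 for independent, normally spread values. The values here are skewed and several sets share reads, so the 7 cannot be judged by that rate. Rnu1b1 and its identical copy Rnu1b2 each stood at 0.694 CPM in heterozygous 4, away from the other heterozygous embryos. Rnu1b6 stood at 3.37 CPM and Rmrp at 9.44 CPM in knockout 4, away from the other knockout embryos. The ribosomal RNA rows Gm26917 and AY036118 stood at 14780 and 4805 CPM in heterozygous 1. The U1 sum stood at 309 per 1000000 counts in the ribosomal RNA rows in heterozygous 4, while the other heterozygous embryos were between 52.4 and 65.9.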

How the results depend on the processing

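DESeq2 without knockout 4, and all settings without knockout 1 and 4, were chosen after seeing the data. Genes called, 0 in each pair with edgeR, became 122 (knockout against wild-type), 74 (knockout against heterozygous) and 4 (heterozygous against wild-type) with DESeq2, and 20 and 4 in the first 2 pairs with DESeq2 without knockout 4. Without knockout 1 and 4 DESeq2 gave 44, 8 and 4, and edgeR 1 (Car4, knockout against wild-type). The title number as a block gave 2 (Napsa and S100g), and leaving out each embryo 0 to 1 for both knockout pairs (Car4 without knockout 1, Chac1 without knockout 3). For knockout over wild-type, the U1 sum was 2.47 with the title number as a block, 2.27 with the ribosomal RNA share as a covariate, and 1.76 (1.77 with DESeq2) without knockout 1 and 4; leaving out 1 embryo gave 3.23 to 4.92. Over heterozygous, these were 0.76, 0.29, 0.16 (0.16), and 1.64 to 3.72. Heterozygous over wild-type, it was 0.74 to 2.06 with 1 embryo left out. Rmrp changed sign over heterozygous, to -0.46 (title number), -0.90 (share), -0.18 without knockout 4 (-0.18 with DESeq2) and -0.58 without knockout 1 and 4 (-0.58), between -0.18 and 1.80 with each embryo left out; over wild-type it was -0.15 (share) and -0.18 (-0.17) without knockout 1 and 4. Over heterozygous, Rn7sk was -0.24 and Rnu1b2 -0.20 with the share, and without knockout 1 and 4 Rnu1b1 was -0.22 (-0.22) and Rnu1b2 -0.27 (-0.27). The relation to the ribosomal RNA share was 0.11 for the U1 sum, 0.62 for Rpph1 and 0.72 for Rn7sk without the 2 farthest embryos. The causes were not tested. For heterozygous over wild-type, Rpph1, Rmrp and Rn7sk took both signs with single embryos left out, between -0.42 and 0.83. Of the other values of single members, 36 moved by more than their spread with direction kept and 218 did not. With each embryo left out, 4 did and 247 did not. Spread here is the SD of log2 CPM within genotypes, from 1.14 for Rpph1 to 1.65 for Rnu1b1, so large changes can count as not moved. Such were Rmrp over wild-type in knockout, from 1.62 to 0.22 without knockout 4, and in heterozygous, from 0.41 to -0.03 with voom. The 3 U1b rows gave no value with at least 1 CPM in 4 embryos, and their low wild-type counts limit their fold changes. Rnu1b1 and Rnu1b2 also gave no value for knockout over wild-type when only those genotypes were fitted.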

Other observations

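One U1 copy, Gm26232, did not follow the rest of the U1 family. It stood at 0.0639, 0.0995, 0.176 and 0.188 CPM in knockout embryos, at 0.230, 0.533, 0.0959 and 0.144 CPM in heterozygous embryos and at 0.207, 0.0290, 0.101 and 0.104 CPM in wild-type embryos, with its highest value in the library labelled heterozygous 2. It was singled out after its values were seen. The 4 genes that DESeq2 called between heterozygous and wild-type embryos, Kdm5d, Eif2s3y, Uty and Ddx3y, are all Y-linked and none is a structural RNA. Their log2 fold changes of heterozygous over wild-type ran from -10.8 for Kdm5d to -13.7 for Eif2s3y. The sexes were therefore not spread alike over these genotypes, and no fit took sex into account. Sex and genotype cannot be fully told apart in this pair. Rpph1 and Rmrp, RNAs of sister enzymes that share most of their proteins, parted in knockout 2, where Rpph1 counts were 1160% of Rmrp counts, against 40.0% to 358% in the other 11 libraries.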
